A study of Danio rerio with 14 samples.

Results

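At 48 hours post fertilization (hpf), RNA of mttp mutant zebrafish embryos, taken whole, was sequenced beside RNA of siblings, in 3 libraries each and 6 of the 14 libraries of the series. The mutants carried a CRISPR/Cas9 knockout of mttp. The siblings were untreated, and the labels name no allele, strain, parental cross or pooling and do not split the siblings into wild types and heterozygotes. All genes of these libraries entered the comparison. Of 36109 genes in the table, 22950 passed a filter on low counts and were tested. The other 8 libraries, 4 mutant and 4 sibling, came from embryos at 24 hpf and were used where the mutant effects of the stages are set against each other. The comparison asks which genes differ in mttp mutant embryos.

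Mttp, the microsomal triglyceride transfer protein, sits in the endoplasmic reticulum (ER) and loads lipid onto apolipoprotein B while that protein is being made. In the zebrafish embryo this takes place chiefly in the yolk syncytial layer, a layer of nuclei and cytoplasm around the yolk that packs yolk lipid into lipoprotein particles and releases them to the blood. Lipases and lipoprotein receptors in the tissues then take the lipid up. Embryos without Mttp are known for an opaque yolk that keeps its lipid.

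Mutant libraries held 33761995 to 35676401 counts, and sibling libraries 29701401 to 46534187. Sibling replicate 3 stood apart from the other 5 libraries. It was the deepest, yet only 23327 genes had a count in it, against 26890 to 27305 in the others, and 0.696% of its counts fell on mitochondrial genes, against 1.303% to 1.80%. It scored 130.0 on the first principal component, which took 51.1% of the variance, while the others lay between -44.6 and -2.31. Results are therefore given with it and, where that moves them, without it. Replicates of a group differed by far more than counting noise. The labels do not tie replicates to separate clutches, and a p-value here reflects only how far these samples spread, which may be technical. All 15 cell type marker sets looked for in the embryo, from muscle, neurons and epidermis to blood, liver and lens, were detected in every library. Among the markers that were at 0 in some library were mxtx1 and mxtx2 of the yolk syncytial layer, fabp10a of the liver and prss59.1 of the exocrine pancreas.

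RNA of the targeted gene was reduced but present in the mutants. The gene mttp measured 11.4, 7.55 and 6.24 CPM in mutants, against 30.4, 19.4 and 38.7 CPM in siblings, in CPM, the counts scaled to a common depth with TMM factors. Every mutant library lay below every sibling library, and the mean was 3.51-fold lower. Its log2 fold change, mutants over siblings ± SE, was -1.81 ± 0.29, adjusted p = 0.00829 (edgeR's quasi-likelihood test with Benjamini-Hochberg adjustment, as for every adjusted p that follows). The call ended without mutant replicate 2 (adjusted p = 0.0530) or mutant replicate 3 (0.0599). Where in mttp the edit lies is not given, so these counts do not show whether the remaining RNA carries it. In the gene order of the RefSeq annotation (GRCz12tu), 4 of the 20 tested genes nearest to mttp were called, or 20%. Of these, saraf, pla2g12a and stra6l were higher and ttyh3b was lower. Among the 100 nearest tested genes 10 were called, 7 of them higher, among these the fibrinogen genes fga and fgb. On the whole chromosome it was 49 of 813 placed genes. Over all tested genes the share was 3.96%. Mutants and siblings were split by genotype at mttp, so mttp and sequence linked to it cannot be told apart.

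The mutants had more genes with raised than with lowered RNA. At an adjusted p under 0.05, 615 genes were higher in mutants (2.68% of those tested) and 294 were lower (1.28%), so that 67.7% of the called genes were higher. Of these, 362 and 139 differed at least 2-fold. The median log2 fold change of all tested genes was -0.01. Without sibling replicate 3, 1173 genes were higher and 645 lower, and 615 of the 615 and 292 of the 294 were called again. The number of higher genes was 380 without sibling replicate 2 and 330, 359 and 326 without mutant replicates 1, 2 and 3, and the number of lower genes there was 114, 100, 113 and 77. All mutant libraries lay above all sibling libraries in 12.2% of the tested genes and below them in 11.2%.

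**Figure D1:**
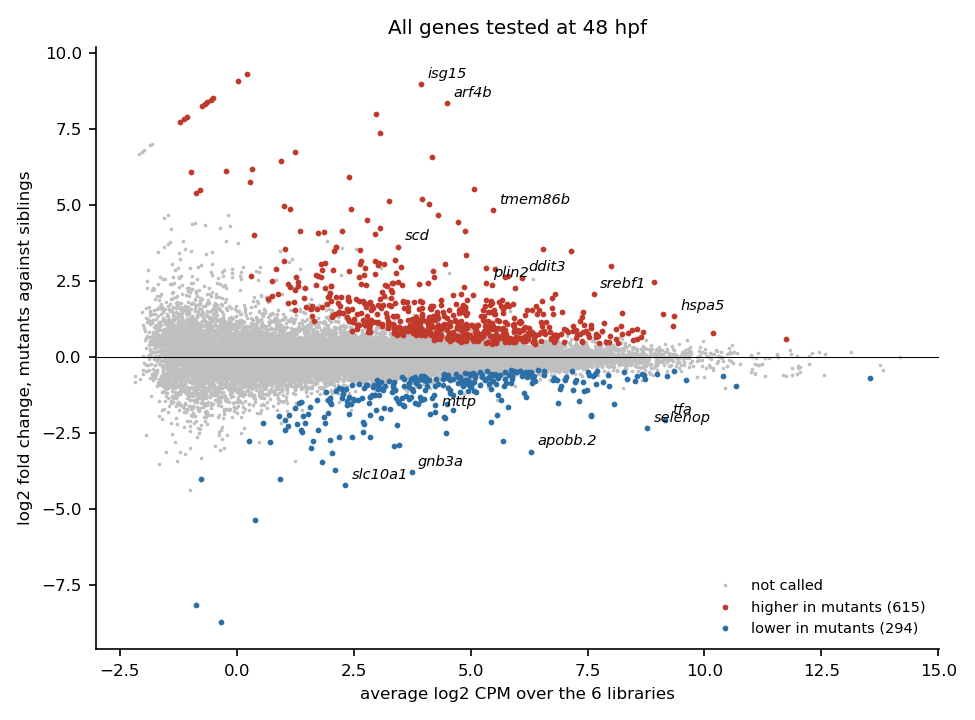
Each point is 1 of the 22950 genes tested at 48 hpf, with its average log2 CPM over the 6 libraries on the x axis and its log2 fold change, mutants over siblings, on the y axis. Red points are the 615 genes called higher and blue points the 294 called lower in mutants; points in the far corners are genes with no count in one group, whose fitted fold is not a measured size.

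The 15 largest rises and 15 largest falls are given for genes with a name other than a clone identifier, an average log2 CPM of at least 1 and groups that did not overlap. Among the rises were interferon-induced genes and small GTPases of membrane traffic. Of these, isg15 and arf4b passed the count filter through the mutant libraries alone and could only be called higher. The gene isg15, a ubiquitin-like modifier that interferon induces, had 40.7, 25.3 and 25.6 CPM in mutants, against 0.122, 0.0651 and 0 CPM in siblings. Sibling libraries were at or near 0 and every mutant library was above 25 (8.99 ± 0.48, adjusted p = 4.84e-05). The gene arf4b, a small GTPase of the Arf family that works at the Golgi, had 51.2, 56.5 and 26.5 CPM in mutants, against 0.214, 0.228 and 0 CPM in siblings (8.35 ± 0.56, adjusted p = 1.08e-04), and limma-voom did not call it (0.0867). A relative listed as ARF5 (1 of many) had 40.7, 38.1 and 21.1 CPM in mutants, against 0.641, 1.85 and 0.6 CPM in siblings (5.05 ± 0.44, adjusted p = 4.08e-04). Arf genes of this kind are similar in sequence, and how reads shared between them were counted is not given. The membrane protein gene tm4sf4 had 88.8, 53.9 and 53.5 CPM in mutants, against 1.65, 1.95 and 0.692 CPM in siblings (5.55 ± 0.36, adjusted p = 1.07e-04). The chitinase gene chia.6 had 23.9, 37.9 and 28.4 CPM in mutants, against 1.47, 1.07 and 0 CPM in siblings (5.22 ± 0.72, adjusted p = 0.00361).

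Further rises came from lipid, selenium and transport genes. The gene tmem86b, whose product breaks down lysoplasmalogens, a class of ether lipids, had 81.5, 86.8 and 89.9 CPM in mutants, against 3.97, 3.64 and 1.52 CPM in siblings. The 3 mutant libraries were within a narrow band (4.84 ± 0.30, adjusted p = 7.68e-05). The gene fep15, a fish selenoprotein of the ER, had 8.86, 11.2 and 11.2 CPM in mutants, against 0.427, 0.26 and 0.369 CPM in siblings (4.86 ± 0.28, adjusted p = 5.91e-05). The nucleoside transporter gene slc28a1 had 8.48, 8.16 and 10.1 CPM in mutants, against 0.275, 0.781 and 0.462 CPM in siblings (4.14 ± 0.36, adjusted p = 4.08e-04), and the opsin gene tmtops2b, a light receptor expressed outside the eye as well, had 7.0001, 7.82 and 5.42 CPM in mutants, against 0.458, 0.325 and 0.369 CPM in siblings (4.12 ± 0.32, adjusted p = 1.97e-04). The gene cd83, a surface protein of activated immune cells, had 21.6, 9.10 and 8.58 CPM in mutants, against 0.916, 0.195 and 0.6 CPM in siblings (4.50 ± 0.54, adjusted p = 0.00194). The remaining rises belonged to irf1b and ifit14 of the interferon response, the aquaglyceroporin gene aqp10a (4.98 ± 0.78), hal, which starts histidine breakdown (4.67 ± 0.87), and leap2, an antimicrobial peptide of the liver (4.15 ± 0.72). Calls were lost for aqp10a without mutant replicate 1 (0.0577), ifit14 without any one of mutant replicates 2 and 3 and sibling replicate 2 (0.0685 to 0.108), hal without any one of mutant replicates 1 and 3 and sibling replicate 2 (0.0812 to 0.0875) and leap2 without any one of mutant replicates 1 and 3 (0.0563 to 0.0742), in adjusted p. With limma-voom the adjusted p was 0.0525 for aqp10a, 0.104 for ifit14 and 0.0565 for hal, and with DESeq2 it was 0.0830 for hal.

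**Figure D2:**
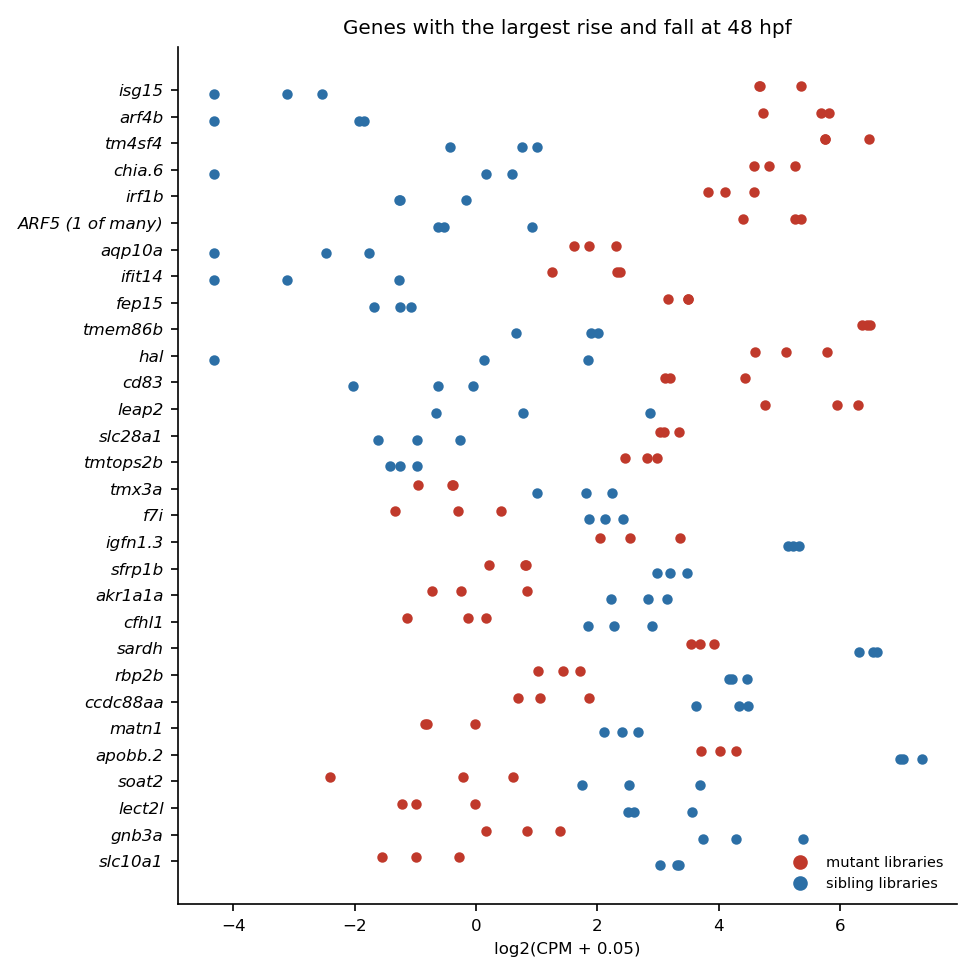
Each point is 1 library at 48 hpf, mutants in red above siblings in blue within a row, with log2(CPM + 0.05) on the x axis, for the 15 largest rises (upper rows) and 15 largest falls (lower rows) among named genes with an average log2 CPM of at least 1 and groups that did not overlap. In every row the 3 mutant points lie on one side of the 3 sibling points.

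Among these falls were products of the yolk syncytial layer and liver, and genes of retina, cartilage and muscle. The bile acid uptake transporter gene slc10a1 had 0.29, 0.777 and 0.452 CPM in mutants, against 10.1, 8.14 and 9.92 CPM in siblings. The mean in mutants was 18.4-fold lower (-4.20 ± 0.35, adjusted p = 3.61e-04). The gene lect2l, a relative of a chemotactic factor secreted by the liver, had 0.378, 0.943 and 0.452 CPM in mutants, against 5.65, 5.99 and 11.7 CPM in siblings (-3.71 ± 0.45, adjusted p = 0.00204). The gene sardh, the mitochondrial enzyme that oxidizes sarcosine, had 11.6, 15.1 and 12.9 CPM in mutants, against 93.3, 79.6 and 96.8 CPM in siblings (-2.77 ± 0.14, adjusted p = 4.84e-05). The gene rbp2b, a carrier of retinol inside cells, had 3.22, 2.64 and 1.98 CPM in mutants, against 17.9, 18.6 and 21.9 CPM in siblings (-2.90 ± 0.21, adjusted p = 1.58e-04). No mutant library of these 4 genes came near a sibling library. The gene gnb3a, a G protein subunit of cone photoreceptors, had 1.74, 2.55 and 1.07 CPM in mutants, against 13.4, 41.8 and 19.4 CPM in siblings (-3.79 ± 0.46, adjusted p = 0.00211). The gene matn1, a cartilage matrix protein, had 0.523, 0.943 and 0.508 CPM in mutants, against 5.25, 6.28 and 4.25 CPM in siblings (-2.99 ± 0.37, adjusted p = 0.00211). The gene igfn1.3, which encodes an immunoglobulin-like and fibronectin type III domain protein, had 5.72, 10.21 and 4.07 CPM in mutants, against 37.5, 35.3 and 39.8 CPM in siblings (-2.49 ± 0.29, adjusted p = 0.00184). The other falls were those of ccdc88aa, a regulator of cell migration (-2.92 ± 0.34), sfrp1b, a secreted Wnt modulator (-2.64 ± 0.27), cfhl1, a relative of complement factor H (-2.74 ± 0.44), akr1a1a, an aldehyde reductase (-2.73 ± 0.44), f7i, a relative of coagulation factor VII (-2.45 ± 0.46), tmx3a, a thioredoxin-related protein of the ER (-2.41 ± 0.45), and the lipid genes soat2 and apobb.2. In a whole embryo, fewer cells of a type and less RNA per cell cannot be told apart. Calls here were lost for akr1a1a without mutant replicate 3 (0.0704), f7i without any one of mutant replicate 3 and sibling replicate 1 (0.0611 to 0.108) and tmx3a without any one of mutant replicates 1, 2 and 3 and sibling replicate 2 (0.0688 to 0.0977), and limma-voom gave tmx3a an adjusted p of 0.0786 and the fit of all 14 libraries 0.0673.

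A minority of the genes that fold proteins in the ER or remove misfolded ones were called, all of them higher in mutants. Of 30 ER chaperones and folding enzymes tested, 7 were called higher and 0 lower (23.3%, against 3.96% of all genes), with a median log2 fold change of 0.38 beside -0.01 over all genes, and 26 of the 30 were above 0. The central chaperone hspa5, also known as BiP, had 924, 944 and 957 CPM in mutants, against 352, 342 and 412 CPM in siblings. Every mutant library held more than every sibling library and the mean was 2.55-fold higher (1.35 ± 0.12, adjusted p = 3.80e-04). The co-chaperone genes dnajb9b, sil1 and dnajc3a, which control the ATP cycle of BiP, changed by 3.15 ± 0.29, 1.87 ± 0.17 and 1.00 ± 0.15. The chaperone gene hyou1 changed by 1.02 ± 0.15. Of 23 genes of ER-associated degradation, the route that pulls misfolded proteins out of the ER, 5 were higher and 0 lower, with a median of 0.43. The channel subunit gene derl3 led with 34.3, 36.7 and 45.3 CPM in mutants, against 4.03, 5.08 and 4.75 CPM in siblings (3.07 ± 0.17, adjusted p = 4.84e-05). The ubiquitin ligase gene syvn1 changed by 1.03 ± 0.12 and its partner herpud1 by 1.05 ± 0.14. The count of chaperones was 12 without sibling replicate 3, and that of degradation genes 3 without mutant replicate 1, 2 or 3 and 9 without sibling replicate 3.

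The sensors and transcription factors of the unfolded protein response carry the alarm from the ER to the nucleus. Of 16 tested, 5 were higher and 0 lower (31.2%, against 3.96% of all genes, median 0.33). The factor ddit3, also called CHOP, had 139, 123 and 92.6 CPM in mutants, against 21.5, 19.7 and 16.8 CPM in siblings. The groups lay far apart, 6.13-fold in the mean (2.62 ± 0.17, adjusted p = 1.07e-04). The ER-anchored lipid regulators creb3l3b and creb3l3a changed by 1.77 ± 0.30 and 1.08 ± 0.19, and the sensor kinase eif2ak3, or PERK, by 0.70 ± 0.12. The calls of all 3 ended with 1 library fewer: creb3l3b without any one of mutant replicates 1 and 3 (0.0596 to 0.0601), creb3l3a without any one of mutant replicates 2 and 3 and sibling replicate 2 (0.0665 to 0.0828) and eif2ak3 without any one of mutant replicates 2 and 3 and sibling replicate 2 (0.0603 to 0.0713). The count was 1 without mutant replicate 3, 2 without mutant replicate 2 or sibling replicate 2, 3 without mutant replicate 1 and 10 without sibling replicate 3.

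Most of the tested genes linked to Atf4 were not called, and those that were called were mostly higher. Atf4, the factor that PERK and other kinases bring about, induces stress regulators, enzymes of serine and asparagine synthesis, amino acid transporters and enzymes that charge transfer RNAs. Of 18 stress regulators, 7 were higher and 0 lower (38.9%, against 3.96% of all genes). Their median was 0.46, and 1 was lower without sibling replicate 3. The factor atf3 had 42.1, 42.2 and 57.4 CPM in mutants, against 15.4, 15.3 and 8.19 CPM in siblings (1.87 ± 0.24, adjusted p = 0.00288). The secreted stanniocalcin gene stc2a had 18.9, 17.3 and 21.3 CPM in mutants, against 6.41, 5.53 and 6.32 CPM in siblings (1.66 ± 0.16, adjusted p = 7.23e-04), and the factors atf5b and atf5a and the stress sensor gene sesn2 changed by 1.36 ± 0.18, 1.097 ± 0.14 and 1.34 ± 0.18. The pseudokinase gene trib3 had 93.5, 92.6 and 86.3 CPM in mutants, against 55.1, 50.3 and 39.8 CPM in siblings (0.91 ± 0.13, adjusted p = 0.00556). All of these separated the groups. Of 17 genes of serine, one-carbon and asparagine synthesis, 8 were higher and 0 lower (47.1% called, against 3.96% of all genes). Their median was 0.46, and 1 was lower with DESeq2. The folate enzyme gene mthfd1a, which is not on this list, was called lower (-1.99 ± 0.26). The first enzymes of serine synthesis, phgdh and psat1, had 189, 161 and 167 CPM in mutants, against 82.8, 97.1 and 95.2 CPM in siblings for phgdh, and 185, 149 and 141 CPM in mutants, against 56.4, 70.7 and 52.0 CPM in siblings for psat1. Their log2 fold changes were 0.91 ± 0.12 and 1.41 ± 0.15. The gene cth, which makes cysteine, changed by 1.24 ± 0.11. The count of synthesis genes was 3 without mutant replicate 2 or 3 or sibling replicate 1 and 4 without mutant replicate 1 or sibling replicate 2.

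Of 17 cytosolic aminoacyl-tRNA synthetases, which load amino acids onto transfer RNAs, 8 were called higher and 0 lower. That was 47.1%, against 3.96% of all genes, with a median of 0.61. In all 17 every mutant library lay above every sibling library, against 12.2% of all tested genes. The gene eprs had 372, 355 and 359.9 CPM in mutants, against 201, 213 and 161 CPM in siblings (0.92 ± 0.13, adjusted p = 0.00360). The genes iars, tars and hars changed by 0.82 ± 0.11, 0.81 ± 0.13 and 0.73 ± 0.12. The count was 4 without mutant replicate 1 or 3 or sibling replicate 2, 5 without mutant replicate 2 and 15 without sibling replicate 3. Of 19 amino acid transporters, 3 were higher and 1 lower (21.1% called, median 0.07). The paralogs slc43a2b and slc43a2a, carriers of large neutral amino acids, were called in opposite directions, at 1.46 ± 0.25 and -0.94 ± 0.21. The cationic carrier slc7a3a and the neutral carrier slc1a4 changed by 0.82 ± 0.14 and 0.73 ± 0.14. The count of higher transporters was 1 without mutant replicate 1 or 2 and 5 without sibling replicate 3. All 4 calls ended with 1 library fewer: slc43a2b without mutant replicate 1 (0.0565), slc43a2a without any one of mutant replicates 1, 2 and 3 and sibling replicates 1 and 2 (0.0634 to 0.231), slc7a3a without any one of mutant replicates 2 and 3 (0.0523 to 0.0612) and slc1a4 without any one of mutant replicates 1 and 2 and sibling replicate 2 (0.0707 to 0.0898). Library size scaling gave slc43a2a an adjusted p of 0.0682.

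Cytosolic stress genes outside the ER moved in part. The shares called were 11.5% of heat shock genes, 12.5% of p53 targets and 13.2% of antioxidant genes, against 3.96% of all genes. Of 26 cytosolic heat shock genes, 3 were higher and 0 lower (median 0.38). The gene si:ch211-199o1.2, which RefSeq lists with the synonym hspa1b and which belongs to the inducible Hsp70 chaperones, had 36.6, 52.96 and 61.9 CPM in mutants, against 2.99, 2.54 and 1.43 CPM in siblings (4.46 ± 0.30, adjusted p = 1.08e-04). The muscle-rich chaperone gene hsp90aa1.1 had 182, 266 and 298 CPM in mutants, against 96.8, 83.9 and 85.9 CPM in siblings (1.48 ± 0.18, adjusted p = 0.00194), and hsp70.3 changed by 1.86 ± 0.30. Members of the Hsp70 family are nearly identical in places, so reads may have been counted for either. Of 24 p53 targets, 3 were higher and 0 lower. The gene mdm2, the ubiquitin ligase that holds p53 in check, had 60.1, 67.1 and 75.2 CPM in mutants, against 24.98, 23.1 and 21.1 CPM in siblings (1.55 ± 0.13, adjusted p = 3.47e-04), and the kinase gene plk3 changed by 0.87 ± 0.10. Of 38 antioxidant genes, many of them Nrf2 targets, 4 were higher and 1 lower. Thioredoxin, txn, had 101, 86.8 and 88.8 CPM in mutants, against 20.7, 20.4 and 40.4 CPM in siblings (1.76 ± 0.25, adjusted p = 0.00416), the haem-degrading enzyme hmox1a 90.2, 66.6 and 66.0 CPM in mutants, against 41.0, 34.5 and 28.7 CPM in siblings (1.098 ± 0.17, adjusted p = 0.00722), and the factor nfe2l2b changed by 1.70 ± 0.27. None of the groups overlapped. Without mutant replicate 3 the adjusted p was 0.0532 for hsp70.3 and 0.0598 for nfe2l2b. The count was 5 without sibling replicate 1 and 6 without sibling replicate 3 for heat shock genes, 6 without sibling replicate 3 for p53 targets and 2 without mutant replicate 3 and 11 without sibling replicate 3 for higher antioxidant genes. The antioxidant gene that was lower was catalase, cat (-0.55, adjusted p = 0.0468), a call that ended without any one of mutant replicates 1, 2 and 3 and sibling replicates 1 and 2.

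**Figure D3:**
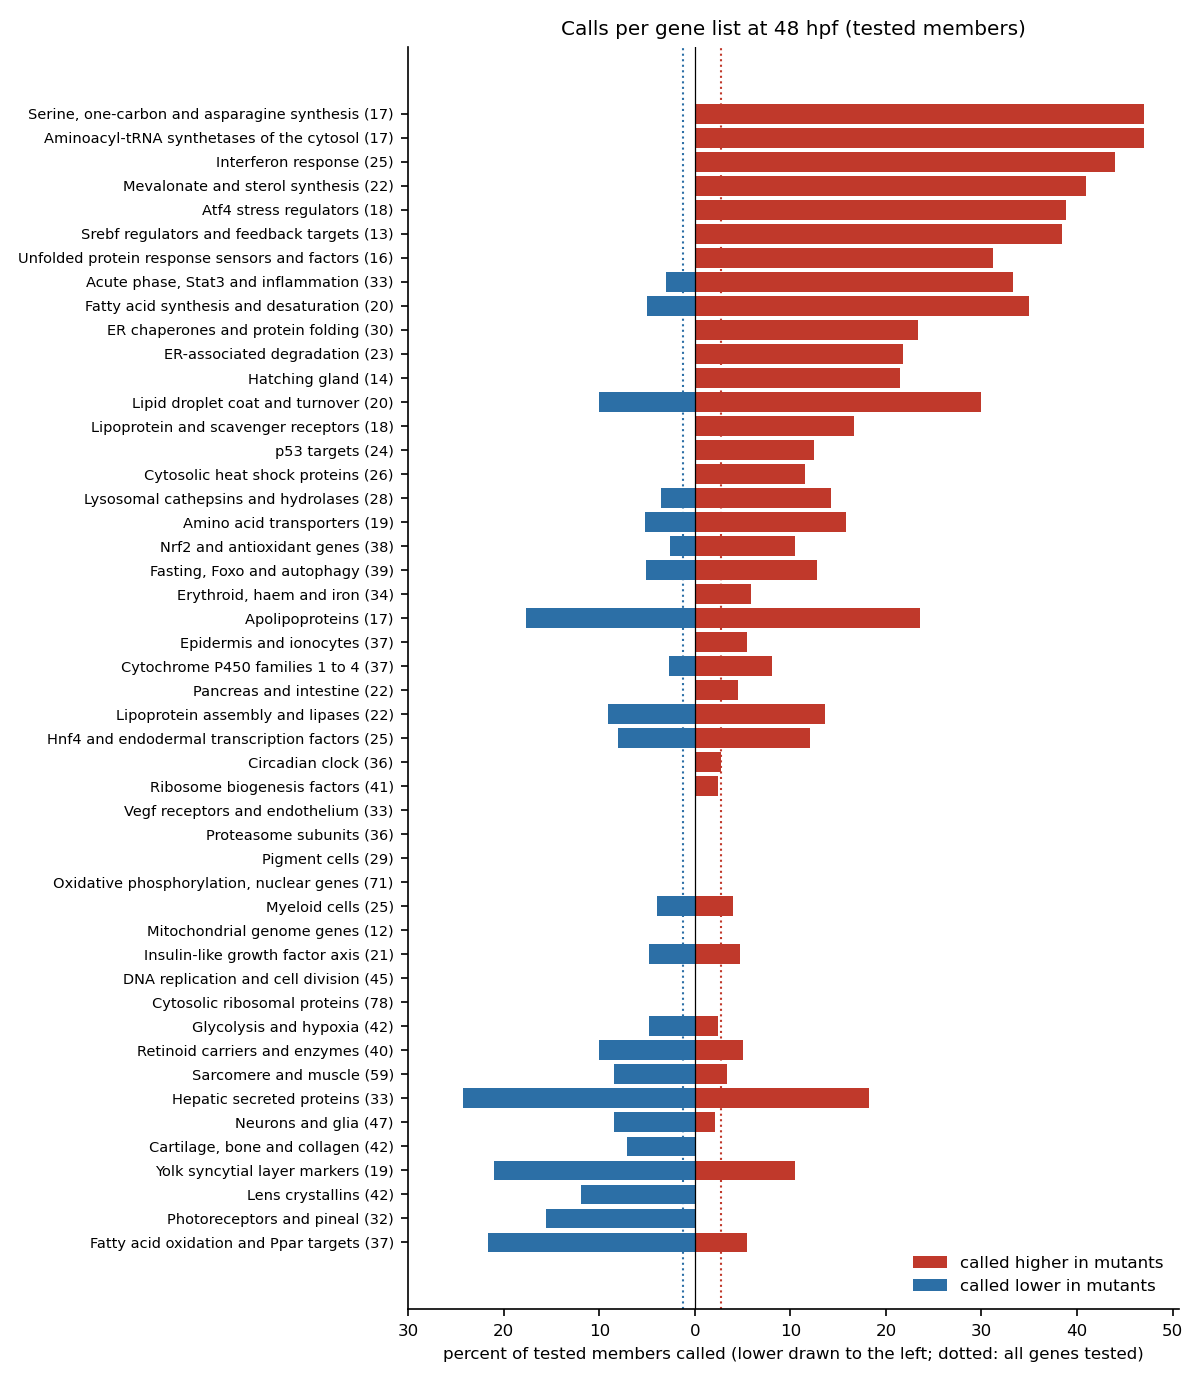
Bars give, for each of the 48 gene lists, the percent of tested members called higher (red, to the right) and called lower (blue, drawn to the left) in mutants at 48 hpf, with the number tested in brackets and dotted lines at the shares over all genes, 2.68% and 1.28%. Serine synthesis, tRNA synthetase, interferon and sterol lists stand at the top, and fatty acid oxidation, photoreceptor and crystallin lists at the bottom.

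Genes of cholesterol synthesis that were called were all higher in mutants. Of 22 genes of the mevalonate and sterol pathway, 9 were called higher and 0 lower (40.9%, against 3.96% of all genes). Their median was 0.72, and 17 had an unadjusted p under 0.05. At the head of the pathway hmgcs1, which makes HMG-CoA, had 80.8, 82.9 and 108 CPM in mutants, against 44.0, 45.9 and 32.1 CPM in siblings (1.16 ± 0.17, adjusted p = 0.00515). The next, rate-limiting enzyme hmgcra had 28.1, 29.4 and 39.6 CPM in mutants, against 4.09, 8.33 and 13.7 CPM in siblings. Its groups did not overlap but its siblings spread widely (1.89 ± 0.36, adjusted p = 0.0188). Among the later sterol enzymes cyp51 had 55.6, 49.9 and 62.1 CPM in mutants, against 20.2, 23.6 and 21.3 CPM in siblings (1.37 ± 0.13, adjusted p = 6.17e-04), and msmo1 had 12.3, 11.3 and 15.6 CPM in mutants, against 4.64, 3.71 and 2.03 CPM in siblings (1.92 ± 0.30, adjusted p = 0.00668). The gene ebp, of the last steps, changed by 1.14 ± 0.20. Some calls were lost, for hmgcra without any one of mutant replicates 1, 2 and 3 and sibling replicate 2 (0.0563 to 0.106) and ebp without any one of mutant replicates 2 and 3 (0.0522 to 0.0853). The count of sterol genes was 3 without mutant replicate 3, 4 without mutant replicate 1, 5 without mutant replicate 2 or sibling replicate 2 and 14 without sibling replicate 3.

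The regulators above this pathway were led by srebf1. Srebf factors are held in the ER by Insig proteins and, when sterols or unsaturated fatty acids are short, go to the nucleus and induce lipid synthesis and the LDL receptor. The gene srebf1 had 290.5, 318 and 355 CPM in mutants, against 85.6, 75.3 and 69.1 CPM in siblings, 4.19-fold in the mean and with no overlap (2.07 ± 0.13, adjusted p = 7.90e-05). Its relative srebf2 had 135, 154 and 190.5 CPM in mutants, against 112, 117 and 121 CPM in siblings (0.45 ± 0.14, adjusted p = 0.1203), was separated by group but not called, and passed with DESeq2 (0.0258) and in the fit of all 14 libraries (0.0160). The gene insig1 had 64.5, 65.0 and 69.4 CPM in mutants, against 21.1, 21.0 and 32.3 CPM in siblings (1.41 ± 0.17, adjusted p = 0.00211). The gene mylipa, whose product lowers LDL receptor protein, changed by 0.92 ± 0.15. In all, 5 of 13 regulators and feedback targets were higher and 0 lower (38.5% called, against 3.96% of all genes, median 0.45). The count of higher ones was 3 without mutant replicate 1, 2 or 3 or sibling replicate 2. The adjusted p of mylipa was 0.0523 without mutant replicate 2 and 0.0589 without mutant replicate 3.

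Of 20 genes that make, elongate and desaturate fatty acids, 7 were higher and 1 lower (40% called, against 3.96% of all genes, median 0.27). The desaturase gene scd, which makes monounsaturated fatty acids, had 23.8, 16.1 and 20.9 CPM in mutants, against 0.794, 1.04 and 2.91 CPM in siblings (3.64 ± 0.43, adjusted p = 0.00185). The elongase gene elovl6 had 157, 203 and 182 CPM in mutants, against 43.2, 39.8 and 44.3 CPM in siblings (2.09 ± 0.13, adjusted p = 7.68e-05). The gene fads2, which introduces double bonds into polyunsaturated fatty acids, had 23.2, 26.9 and 24.7 CPM in mutants, against 3.48, 5.40 and 5.26 CPM in siblings (2.40 ± 0.20, adjusted p = 3.34e-04). The gene acaca, which makes malonyl-CoA, changed by 0.97 ± 0.12, elovl5 by 1.67 ± 0.21 and acsl3b, which activates fatty acids, by 0.89 ± 0.12. The gene elovl4b, an elongase of very long chains that is strong in the eye, was the member called lower, at -1.69 ± 0.26, and the call ended without mutant replicate 1 (0.0501).

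Genes that coat, fill and turn over lipid droplets, the cell's neutral lipid stores, gave 6 higher and 2 lower of 20. That was 40% called, against 3.96% of all genes, with a median of 0.37. The turnover genes pnpla2 and g0s2 were higher, at 1.47 ± 0.28 and 2.33 ± 0.42. The droplet coat gene plin2 had 44.4, 53.6 and 106 CPM in mutants, against 13.5, 12.5 and 11.7 CPM in siblings (2.44 ± 0.30, adjusted p = 0.00211). The gene soat1, which esterifies cholesterol for storage, had 8.45, 9.10 and 11.1 CPM in mutants, against 2.96, 2.08 and 2.79 CPM in siblings (1.86 ± 0.23, adjusted p = 0.00213). Its paralog soat2, the form of liver and intestine, was called in the opposite direction, with 0.813, 0.139 and 1.47 CPM in mutants, against 12.9, 3.29 and 5.68 CPM in siblings (-3.17 ± 0.72, adjusted p = 0.0416). The gene dgat2, which makes triglyceride, changed by 0.72 ± 0.13, and cideb, which acts on droplets and on lipoprotein loading in the liver, by 1.77 ± 0.30. Calls were lost for soat2 without any one of mutant replicates 1, 2 and 3 and sibling replicate 1 (0.0786 to 0.173), dgat2 without any one of mutant replicates 2 and 3 and sibling replicate 2 (0.0518 to 0.0720) and cideb without any one of mutant replicates 1 and 3 (0.0508 to 0.0559), and limma-voom gave soat2 an adjusted p of 0.135. The count of higher droplet genes was 2 without mutant replicate 3 and 3 without mutant replicate 2 or sibling replicate 2, and that of lower ones 0 without mutant replicate 1, 2 or 3 or sibling replicate 1 and 1 without sibling replicate 2.

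Most calls among fatty acid oxidation genes were lower. Of 37 oxidation genes and Ppar targets, 2 were higher and 8 lower (27.0% called, against 3.96% of all genes; median -0.22). The gene pdk4, a kinase that spares glucose by shutting pyruvate dehydrogenase, had 11.97, 16.6 and 14.8 CPM in mutants, against 32.2, 37.2 and 34.2 CPM in siblings (-1.26 ± 0.15, adjusted p = 0.00211). The gene cpt1b, the muscle gate for fatty acids into mitochondria, had 4.47, 3.77 and 4.12 CPM in mutants, against 11.1, 11.2 and 8.35 CPM in siblings (-1.304 ± 0.20, adjusted p = 0.00687), and it was not called in the fit of all 14 libraries (0.0726). The other 5 genes called lower were beta-oxidation enzymes, acadm (-0.64), acadl (-0.71), acads (-0.96), hadhaa (-0.98) and hadhb (-0.63), and each of these calls ended without mutant replicate 2 and several also without mutant replicate 1 or 3 or sibling replicate 2 (0.0555 to 0.171). The fasting-induced lipase inhibitor angptl4 had 32.1, 31.2 and 27.8 CPM in mutants, against 54.7, 43.7 and 51.8 CPM in siblings (-0.72 ± 0.13, adjusted p = 0.0131). Against this direction the receptor gene pparab and the mitochondrial carrier gene ucp2 were higher, at 0.99 ± 0.15 and 0.85 ± 0.13. The call ended for angptl4 without any one of mutant replicates 1, 2 and 3 (0.0577 to 0.100). The count of lower genes was 2 without mutant replicate 2, 3 without mutant replicate 1 or 3 and 4 without sibling replicate 2, and that of higher genes 6 without sibling replicate 3.

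The apolipoprotein genes split. Of 17 tested, 4 were higher and 3 lower (41.2% called, against 3.96% of all genes, median 0.12). Among the apolipoprotein B genes, which encode the backbone that Mttp loads, apobb.2 had 13.0, 16.1 and 19.5 CPM in mutants, against 132, 126 and 162 CPM in siblings, a 8.64-fold lower mean (-3.11 ± 0.17, adjusted p = 4.84e-05), and apoba had 481, 631 and 631 CPM in mutants, against 1073, 918 and 911 CPM in siblings (-0.74 ± 0.14, adjusted p = 0.0189). The most abundant of them, apobb.1, had 7166, 5302 and 6548 CPM in mutants, against 5927, 4782 and 6834 CPM in siblings. Its groups overlapped and it was not called (0.12 ± 0.16, adjusted p = 0.811). The genes apobb.1 and apobb.2 are similar, and reads that match both may have been counted for either or for neither. Among the exchangeable apolipoproteins apoa4b.2, which rides on triglyceride-rich particles, had 682, 931 and 839.8 CPM in mutants, against 114, 136 and 194 CPM in siblings (2.46 ± 0.21, adjusted p = 3.61e-04). Its relative apoa4a changed by 1.15 ± 0.20, apoeb, a ligand of lipoprotein receptors, by 0.79 ± 0.15, apoa1a by 0.60 ± 0.14 and apoc1 by -0.79 ± 0.13. The genes apoa1b (2620.5, 1754 and 1832 CPM in mutants, against 3145, 2360.4 and 1936 CPM in siblings) and apoc2, the cofactor of lipoprotein lipase (279, 189 and 222 CPM in mutants, against 313, 235 and 202 CPM in siblings), overlapped between the groups and were not called. Calls here were lost for apoba without any one of mutant replicates 1, 2 and 3 and sibling replicates 1 and 2 (0.0546 to 0.0815), apoa4a without any one of mutant replicates 1 and 3 and sibling replicate 2 (0.0640 to 0.0828), apoc1 without any one of mutant replicates 2 and 3 (0.0557 to 0.0607), apoeb without any one of mutant replicates 2 and 3 and sibling replicates 1 and 2 (0.0571 to 0.0823) and apoa1a without any one of mutant replicates 1, 2 and 3 and sibling replicates 1 and 2 (0.0737 to 0.181). The count of higher genes was 1 without mutant replicate 3 or sibling replicate 2, 2 without mutant replicate 1 or sibling replicate 1 and 8 without sibling replicate 3, and that of lower genes 1 without mutant replicate 2 or 3.

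**Figure D4:**
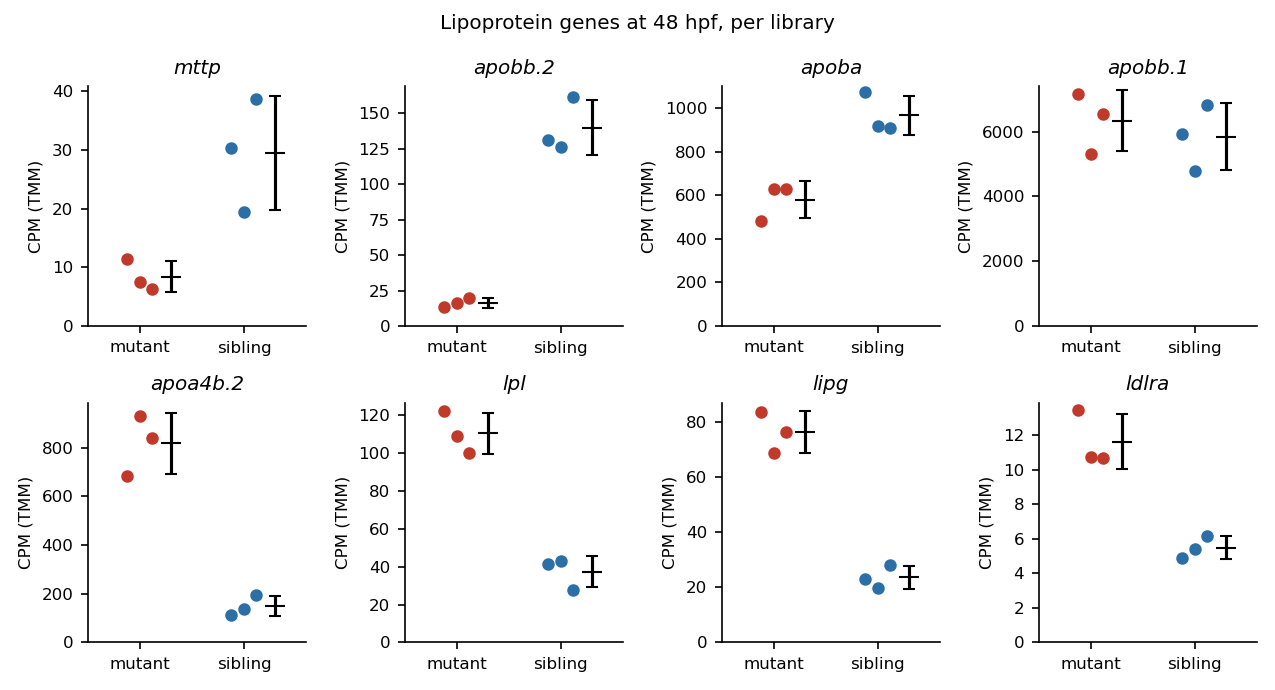
Points are libraries at 48 hpf, mutants (red, left) and siblings (blue, right), with CPM on the y axis from 0 and the group mean ± SD (n = 3) as black bars, for mttp, 3 apolipoprotein B genes, apoa4b.2, the lipases lpl and lipg and the receptor ldlra. The groups overlap for apobb.1 and are separate in the other 7 panels.

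Lipases that act on lipoproteins, lpl and lipg, were higher. Lipoprotein lipase, lpl, which frees fatty acids from circulating particles, had 122, 109 and 100.1 CPM in mutants, against 41.2, 42.8 and 27.9 CPM in siblings (1.57 ± 0.17, adjusted p = 0.00135). Endothelial lipase, lipg, which acts on the phospholipids of particles, had 83.8, 68.8 and 76.5 CPM in mutants, against 22.9, 19.9 and 28.0 CPM in siblings (1.69 ± 0.15, adjusted p = 4.46e-04). All mutant libraries exceeded all sibling libraries in both. The LDL receptor gene ldlra had 13.5, 10.7 and 10.7 CPM in mutants, against 4.89, 5.43 and 6.19 CPM in siblings (1.08 ± 0.19, adjusted p = 0.0128), and the scavenger receptor gene scarb1, which takes up cholesterol from high-density lipoprotein, changed by 0.82 ± 0.16. The gene pla2g12b, which helps to load lipoproteins in the ER, had 344, 390.3 and 365 CPM in mutants, against 194, 215 and 380.0 CPM in siblings and was not called (0.48 ± 0.23, adjusted p = 0.354), but was without sibling replicate 3 (0.85, adjusted p = 7.00e-04). Together 3 of 22 assembly and lipase genes were higher and 2 lower (22.7% called). Of 18 receptors, 3 were higher and 0 lower (16.7%), and 1 was lower without sibling replicate 3. Over all genes the share called was 3.96%. Some calls were lost, for ldlra without any one of mutant replicate 1 and sibling replicate 2 (0.0543 to 0.0717) and scarb1 without any one of mutant replicates 2 and 3 and sibling replicate 2 (0.0997 to 0.126), and ldlra was not called in the fit of all 14 libraries (0.118). The count of higher assembly and lipase genes was 6 without sibling replicate 3, and that of receptors 0 without sibling replicate 2, 1 without mutant replicate 1, 2 or 3 and 5 without sibling replicate 3.

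The Hnf4 transcription factors, nuclear receptors that drive lipoprotein genes in liver, gut and yolk syncytial layer, gave 1 call among 3 genes. The gene hnf4b had 23.4, 18.9 and 17.9 CPM in mutants, against 11.5, 7.48 and 12.001 CPM in siblings (0.96 ± 0.21, adjusted p = 0.0340). The gene hnf4a had 19.5, 13.6 and 14.3 CPM in mutants, against 17.2, 10.1 and 14.3 CPM in siblings, with overlapping groups (0.19 ± 0.22, adjusted p = 0.761), and hnf4g had 1.74, 1.78 and 1.69 CPM in mutants, against 0.916, 1.24 and 1.43 CPM in siblings and was not called (0.54 ± 0.41, adjusted p = 0.602). The call ended for hnf4b without any one of mutant replicates 1, 2 and 3 and sibling replicates 1 and 2 (0.0570 to 0.155). Of 25 Hnf4 and endodermal factors, 3 were higher and 2 lower (20% called, against 3.96% of all genes, median 0.30). The gene gata6, a factor of endoderm and heart, had 38.6, 46.1 and 48.1 CPM in mutants, against 23.3, 22.1 and 18.8 CPM in siblings (1.05 ± 0.14, adjusted p = 0.00300), and prox1a, a factor of liver, lens and lymphatic vessels, had 59.05, 62.4 and 49.6 CPM in mutants, against 104, 110.2 and 94.5 CPM in siblings (-0.85 ± 0.12, adjusted p = 0.00484). The count of higher factors was 1 without mutant replicate 1 or 3 or sibling replicate 1 or 2, and that of lower ones 1 without mutant replicate 1, 2 or 3 or sibling replicate 1 or 2.

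Secreted plasma protein genes were called in both directions. Of 33 hepatic secreted protein genes, 6 were higher and 8 lower (42.4% called, against 3.96% of all genes, median -0.10). Transferrin, tfa, the iron carrier, had 243, 216 and 202 CPM in mutants, against 661, 963 and 1163 CPM in siblings, 4.22-fold lower in the mean (-2.08 ± 0.20, adjusted p = 6.41e-04). The protease inhibitor gene serpina1l had 16.7, 19.8 and 11.7 CPM in mutants, against 93.3, 62.9 and 56.8 CPM in siblings (-2.15 ± 0.24, adjusted p = 0.00139), and vitronectin, vtna, had 9.12, 5.13 and 8.19 CPM in mutants, against 32.7, 24.2 and 25.2 CPM in siblings (-1.87 ± 0.23, adjusted p = 0.00211). The selenium carrier selenop, listed with the yolk syncytial layer, had 149.6, 129 and 159.8 CPM in mutants, against 696, 601 and 898 CPM in siblings (-2.33 ± 0.17, adjusted p = 1.49e-04). The mutant libraries were far below the siblings in each of these. The complement gene c9 changed by -0.74 ± 0.11. On the raised side complement factor cfb had 189.5, 124 and 171 CPM in mutants, against 65.2, 46.5 and 47.1 CPM in siblings (1.61 ± 0.19, adjusted p = 0.00188), and the copper carrier cp, ceruloplasmin, had 252, 226 and 214 CPM in mutants, against 113, 125 and 97.6 CPM in siblings (1.05 ± 0.13, adjusted p = 0.00205). The fibrinogen genes fga and fgg, of the clot, were higher at 1.03 ± 0.14 and 0.97 ± 0.15. The summed level of 5 liver markers was 469.6 to 559 CPM in mutants and 880.0 to 1355 CPM in siblings, of which tfa and prox1a were called lower and cp higher. Most of the sibling sum was tfa, given above, so the lower sum in mutants follows tfa and does not measure liver content. Of 5 yolk syncytial layer markers, gata6 and creb3l3a were called higher. The summed level of these 5 markers was 117 to 141 CPM in mutants and 91.8 to 117 CPM in siblings. Their part in these results was not tested. Of 19 yolk syncytial layer genes, 2 were higher and 4 lower, mttp among them (31.6% called). The count of lower hepatic genes was 5 without mutant replicate 3, that of higher yolk syncytial layer genes 1 without mutant replicate 2 or 3 or sibling replicate 2 and 4 without sibling replicate 3 and that of lower ones 2 without mutant replicate 2 or 3.

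Interferon-induced genes that were called were all higher in mutants. Of 25 tested, 11 were higher and 0 lower (44.0%, against 3.96% of all genes, median 1.31). Leaving out a single library did not move that count by over 1.5 times. A further 12 listed genes were under the count filter. Some tested members, among them isg15 and tap2a, passed it through the mutant libraries alone and could only be called higher. The share and the median are therefore partly set by the filter. Beside isg15, the interferon regulatory factor gene irf1b had 23.9, 14.01 and 17.0 CPM in mutants, against 0.366, 0.846 and 0.369 CPM in siblings (5.14 ± 0.36, adjusted p = 1.34e-04), and irf7 had 13.5, 8.07 and 8.95 CPM in mutants, against 3.36, 2.54 and 3.00 CPM in siblings (1.78 ± 0.25, adjusted p = 0.00440). The antigen peptide transporter gene tap2a had 62, 73 and 68 counts in mutants, against 0 in each sibling library. Most low counts were even numbers, and how fragments were counted is not given. A floor of 3 counts over the sibling libraries takes each count as 1 fragment. On that floor tap2a was at least 68.3-fold higher. Its partner tap1 had 17.9, 14.8 and 10.6 CPM in mutants, against 0.244, 2.15 and 0.323 CPM in siblings (4.04 ± 0.66, adjusted p = 0.00937). The RNA sensor gene dhx58 had 5.87, 2.50 and 2.65 CPM in mutants, against 0.244, 0.456 and 0.231 CPM in siblings (3.57 ± 0.52, adjusted p = 0.00529), the antiviral GTPase gene mxc 30.5, 15.9 and 11.5 CPM in mutants, against 2.63, 5.04 and 3.42 CPM in siblings (2.39 ± 0.38, adjusted p = 0.00756), and b2m, the light chain of MHC class I, 8.92, 6.74 and 4.94 CPM in mutants, against 1.44, 1.33 and 2.35 CPM in siblings (2.00 ± 0.33, adjusted p = 0.00972). The groups did not overlap in these. Without mutant replicate 1 the adjusted p was 0.05004 for tap1 and 0.0596 for b2m, limma-voom gave dhx58 0.0715, and the fit of all 14 libraries gave mxc 0.0563. The summed level of 5 myeloid markers was 81.0 to 85.2 CPM in mutants and 59.7 to 81.2 CPM in siblings, and 0 of the 5 were called.

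Of 33 genes of Stat3 signalling, inflammation and the acute-phase response, 11 were higher and 1 lower (36.4%, against 3.96% of all genes). Their median was 0.56, and 2 were lower without sibling replicate 3. The shared cytokine receptor chain il6st had 132, 108 and 135 CPM in mutants, against 55.2, 56.1 and 57.0 CPM in siblings (1.16 ± 0.12, adjusted p = 9.37e-04), the factor stat3 itself 79.6, 80.2 and 80.9 CPM in mutants, against 46.0, 42.9 and 33.3 CPM in siblings (0.98 ± 0.13, adjusted p = 0.00351), and its feedback inhibitor socs3a 19.5, 11.1 and 14.3 CPM in mutants, against 4.15, 3.06 and 1.57 CPM in siblings (2.36 ± 0.35, adjusted p = 0.00556). The chemokine gene cxcl18b, induced in injured and infected zebrafish tissue, had 17.8, 8.18 and 8.30 CPM in mutants, against 1.22, 0.846 and 0.877 CPM in siblings (3.54 ± 0.37, adjusted p = 0.00107). No group overlapped another in these 4 genes. The member called lower was si:ch211-270n8.1, at 0, 0.111 and 0.0565 CPM in mutants, against 1.59, 1.302 and 4.38 CPM in siblings. It passed the count filter through the sibling libraries alone, and its call ended with limma-voom (0.154) or without mutant replicate 3 (0.0793). Of 25 myeloid cell genes, 1 was higher, the amino acid transporter gene slc7a7 (1.34 ± 0.15; 2 higher without sibling replicate 3), and 1 lower, apoc1 (8% called, against 3.96% of all genes). The median of the myeloid genes was 0.38, and 23 of the 25 were above 0. The count of acute-phase genes was 4 without mutant replicate 1 or 3 and 7 without mutant replicate 2 or sibling replicate 1, and apoc1 was not called without mutant replicate 2 (0.0557) or 3 (0.0607).

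Among lysosomal enzymes 4 of 28 were higher and 1 lower (17.9% called, against 3.96% of all genes), with a median of 0.39. The cathepsin gene ctss2.1 had 16.3, 13.2 and 19.2 CPM in mutants, against 4.21, 4.36 and 2.49 CPM in siblings (2.14 ± 0.25, adjusted p = 0.00189), ctsz had 45.1, 37.4 and 37.0 CPM in mutants, against 18.01, 22.2 and 20.7 CPM in siblings (0.97 ± 0.14, adjusted p = 0.00432), and ctsc, which activates proteases of immune cells, had 47.1, 46.4 and 47.2 CPM in mutants, against 24.5, 29.6 and 29.3 CPM in siblings (0.75 ± 0.12, adjusted p = 0.00747). Without sibling replicate 3 the count of higher genes was 11. The cholesterol-binding gene npc2 was the one called lower (-0.59 ± 0.13), and the call ended for npc2 without any one of mutant replicates 1, 2 and 3 and sibling replicates 1 and 2 (0.0671 to 0.195).

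Of 39 fasting, Foxo and autophagy genes, 5 were higher and 2 lower (17.9% called, against 3.96% of all genes), and of 21 genes of the insulin-like growth factor axis 1 was higher and 1 lower (9.52%). The gene igfbp1a, which binds insulin-like growth factors and is induced by fasting, had 46.7, 41.1 and 41.0 CPM in mutants, against 13.4, 16.1 and 19.8 CPM in siblings (1.38 ± 0.16, adjusted p = 0.00175). The autophagy receptor gene sqstm1 had 32.6, 25.5 and 22.8 CPM in mutants, against 10.9, 8.01 and 6.49 CPM in siblings (1.68 ± 0.22, adjusted p = 0.00290), and pck2, the mitochondrial enzyme of glucose synthesis, had 174, 169 and 163 CPM in mutants, against 86.7, 73.4 and 104 CPM in siblings (0.94 ± 0.14, adjusted p = 0.00484). Each was higher in every mutant library. The growth factor genes themselves were not called. The gene igf1 had 1.07, 0.777 and 1.101 CPM in mutants, against 0.916, 1.33 and 1.57 CPM in siblings (-0.37 ± 0.49, adjusted p = 0.791), igf2b had 40.1, 36.9 and 35.3 CPM in mutants, against 31.4, 33.5 and 23.5 CPM in siblings (0.35 ± 0.15, adjusted p = 0.302), and the hormone gene fgf21 had 8.19, 9.13 and 8.19 CPM in mutants, against 13.0, 13.1 and 9.05 CPM in siblings (-0.46 ± 0.19, adjusted p = 0.277). Without sibling replicate 3, fgf21 was called lower (-0.60, adjusted p = 0.0363). The binder igfbp2a had 20.6, 25.4 and 21.6 CPM in mutants, against 36.1, 38.0 and 47.9 CPM in siblings (-0.85 ± 0.15, adjusted p = 0.0128). Of 42 glycolysis and hypoxia genes, 1 was higher and 2 lower (7.14%), the glucose transporter gene slc2a1b (0.49 ± 0.12) and the muscle enzymes pfkma (-0.77 ± 0.12) and pkmb (-0.70 ± 0.13). Calls ended for igfbp2a without any one of mutant replicates 1 and 3 (0.0814 to 0.0925), pfkma without any one of mutant replicates 1 and 2 (0.0520 to 0.0552), pkmb without any one of mutant replicates 1, 2 and 3 and sibling replicate 2 (0.0547 to 0.119) and slc2a1b without any one of mutant replicates 1, 2 and 3 and sibling replicates 1 and 2 (0.102 to 0.196), and pkmb was not called in the fit of all 14 libraries (0.105). Library size scaling gave slc2a1b an adjusted p of 0.0598. Without sibling replicate 3, 3 glycolysis genes and 2 growth factor axis genes were higher. The count of higher fasting genes was 3 without mutant replicate 1 or sibling replicate 2, and that of lower ones 0 without mutant replicate 1, 2 or 3 or sibling replicate 1 and 1 without sibling replicate 2.

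Several photoreceptor genes were lower in the mutants. Of 32 photoreceptor and pineal genes, 0 were higher and 5 lower (15.6%, against 1.28% of all genes; median -0.40). The gene crx, the factor that drives photoreceptor genes, had 11.2, 13.1 and 9.40 CPM in mutants, against 36.0, 47.3 and 30.1 CPM in siblings (-1.75 ± 0.20, adjusted p = 0.00162). Its relative otx5, a factor of the pineal and retina, had 22.4, 33.8 and 24.8 CPM in mutants, against 77.3, 104 and 72.7 CPM in siblings (-1.65 ± 0.19, adjusted p = 0.00176). Neither overlapped between the groups. The arrestin gene sagb, whose product ends the light signal, had 0.668, 1.94 and 1.36 CPM in mutants, against 5.56, 6.80 and 5.49 CPM in siblings (-2.16 ± 0.38, adjusted p = 0.0126), and recoverin rcvrn2 had 2.90, 2.94 and 1.81 CPM in mutants, against 6.23, 9.44 and 6.97 CPM in siblings (-1.56 ± 0.28, adjusted p = 0.0140). Calls were lost for sagb without any one of mutant replicate 3 and sibling replicate 2 (0.0594 to 0.0793) and rcvrn2 without any one of mutant replicates 1 and 3 and sibling replicate 2 (0.0542 to 0.0727). The count of photoreceptor genes was 2 without mutant replicate 3 or sibling replicate 2 and 3 without mutant replicate 1.

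Genes of lens, muscle, neurons and cartilage were also among those called. The shares called in these lists were 11.9%, 11.9%, 10.6% and 7.14% of the tested members, against 3.96% of all genes. Of 42 lens crystallin genes, 0 were higher and 5 lower (median -0.38), all of them members of the crygm2d family, whose copies are nearly identical, so reads may have been shared among them. That count was 0 without mutant replicate 1, 2 or 3 or sibling replicate 2 and 9 without sibling replicate 3, and 0 in the fit of all 14 libraries and 15 with DESeq2. Of 59 sarcomere and muscle genes, 2 were higher and 5 lower (median -0.28). The skeletal actin gene acta1b had 959, 1244 and 1114 CPM in mutants, against 2058, 2049 and 2311 CPM in siblings (-0.95 ± 0.13, adjusted p = 0.00351), whereas desmin, desma, an intermediate filament of muscle, had 449, 368 and 437 CPM in mutants, against 234, 258 and 238 CPM in siblings (0.78 ± 0.12, adjusted p = 0.00590). The 2 genes moved apart. The summed level of 6 muscle markers was 18137 to 19267 CPM in mutants and 21373 to 23813 CPM in siblings. That sum includes acta1b, the only one of the 6 that was called, so it is no separate reference for acta1b. Of 47 neuronal and glial genes, 1 was higher (2 without sibling replicate 3) and 4 lower (median -0.25). The neurofilament gene nefma had 84.3, 76.5 and 100.2 CPM in mutants, against 38.7, 39.5 and 27.6 CPM in siblings (1.303 ± 0.16, adjusted p = 0.00249), and the neuronal factor neurod6b had 8.77, 6.85 and 9.60 CPM in mutants, against 22.7, 25.4 and 18.9 CPM in siblings (-1.41 ± 0.18, adjusted p = 0.00280). The summed level of 5 neuronal markers was 1444 to 1582 CPM in mutants and 1257 to 1662 CPM in siblings, with stmn1b among the 5 called lower. Of 42 cartilage, bone and collagen genes, 0 were higher and 3 lower, matn1, col9a1a (-0.61 ± 0.12) and acana (-0.84 ± 0.18), with calls lost for col9a1a without any one of mutant replicates 1, 2 and 3 and sibling replicate 1 (0.0583 to 0.151) and acana without any one of mutant replicates 1, 2 and 3 and sibling replicate 2 (0.116 to 0.183) and, with library size scaling, for acana (0.0570). The count of lower muscle genes was 1 without mutant replicate 1, 2 or 3, 3 without sibling replicate 1 or 2 and 9 without sibling replicate 3, that of lower neuronal genes 1 without mutant replicate 1, 2 or 3 or sibling replicate 2 and 11 without sibling replicate 3 and that of cartilage genes 1 without mutant replicate 2 or 3. Whether the marker levels take part in these results was not tested.

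The hatching gland, which makes the enzymes that dissolve the chorion and is lost after hatching, showed more RNA of some of its genes in the mutants. Of its 14 genes, 3 were higher and 0 lower (21.4% called, against 3.96% of all genes). The summed level of 4 markers was 511 to 562 CPM in mutants and 345 to 388 CPM in siblings. Most of that sum was he1.1, and ctslb is another of the 4 markers. The sum therefore follows the genes given next and is no separate result. The tetraspanin gene cd63 had 154, 129 and 128 CPM in mutants, against 71.5, 66.2 and 69.1 CPM in siblings (0.99 ± 0.12, adjusted p = 0.00184), the hatching enzyme gene he1.1 424, 421 and 431 CPM in mutants, against 295, 269.8 and 299.7 CPM in siblings (0.56 ± 0.10, adjusted p = 0.0154), and the protease gene ctslb 12.3, 14.3 and 13.3 CPM in mutants, against 4.82, 6.31 and 7.45 CPM in siblings (1.099 ± 0.20, adjusted p = 0.0140). Every mutant library was above every sibling library. Hatching enzyme genes are near identical. Calls ended for he1.1 without any one of mutant replicates 1, 2 and 3 and sibling replicate 2 (0.0646 to 0.0803) and ctslb without any one of mutant replicates 2 and 3 and sibling replicate 2 (0.0568 to 0.0743), and the count was 1 without mutant replicate 2 or 3 or sibling replicate 2.

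Retinoid and cytochrome P450 genes were split by member. Of 40 retinoid carriers and enzymes, 2 were higher and 4 lower (15% called, against 3.96% of all genes), with a median of -0.09. The intestinal-type retinol carriers rbp2a and rbp2b were both lower, with 2.15, 4.7996 and 4.29 CPM in mutants, against 12.03, 15.3 and 25.4 CPM in siblings for rbp2a (-2.23 ± 0.35, adjusted p = 0.00766). The retinol receptor gene stra6l, a close neighbour of mttp, had 7.09, 8.38 and 8.84 CPM in mutants, against 2.38, 1.95 and 2.31 CPM in siblings (1.87 ± 0.22, adjusted p = 0.00194). Of 37 P450 genes of families 1 to 4, 3 were higher and 1 lower (10.8% called). The gene cyp2aa7 had 21.0, 39.4 and 35.9 CPM in mutants, against 5.74, 2.60 and 5.10 CPM in siblings (2.83 ± 0.32, adjusted p = 0.00165). The gene cyp4v8 had 0 counts in every mutant library, against 40, 30 and 34 in the siblings. It passed the count filter through the sibling libraries alone and could only be called lower. It was at least 34.4-fold lower with 3 counts over the mutant libraries as the floor. That bound too takes each count as 1 fragment, which is not known. The call ended for cyp4v8 without any one of mutant replicates 1, 2 and 3 and sibling replicates 1 and 2 (0.0570 to 0.0673). Of 34 erythroid, haem and iron genes, 2 were higher (5.88%), hmox1a and the transferrin receptor gene tfr2, which senses iron and had 26.1, 34.7 and 34.9 CPM in mutants, against 3.76, 6.90 and 4.62 CPM in siblings (2.65 ± 0.24, adjusted p = 4.72e-04). The summed level of 6 erythroid markers was 1052 to 1818 CPM in mutants and 1589.8 to 2431 CPM in siblings. Of 22 pancreas and intestine genes, 1 was higher (4.55%), the endocrine factor insm1a (0.86 ± 0.14). The shares of the iron list and of this list were near the 3.96% of all genes. The count of lower retinoid genes was 2 without mutant replicate 2 or 3 or sibling replicate 1 or 2, of higher ones 1 without mutant replicate 1 or 2 or sibling replicate 2, of higher P450 genes 1 without mutant replicate 1 or sibling replicate 2 and 6 without sibling replicate 3, of iron genes 6 without sibling replicate 3, with 2 lower, and of pancreas and intestine genes 2 without mutant replicate 1 and 3 without sibling replicate 3.

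Several large groups of housekeeping and tissue genes gave 0 calls in the main edgeR fit of the 6 libraries. These were the 71 nuclear genes of oxidative phosphorylation, of which 5 had an unadjusted p under 0.05, the 12 genes of the mitochondrial genome (0), the 78 cytosolic ribosomal protein genes (4), the 45 genes of DNA replication and cell division (1), the 36 proteasome subunits (3), the 33 Vegf receptor and endothelial genes (7) and the 29 pigment cell genes (6). With limma-voom the count was 0 in each of these lists. With DESeq2, 2 proteasome subunits and 2 endothelial genes were higher, 2 pigment genes were lower and the other lists stayed at 0. In the edgeR fit of all 14 libraries, 2 proteasome subunits, 3 endothelial genes and 1 cell division gene were higher, and 1 pigment gene was lower. With replicate number as a block, 1 pigment gene was lower. Without sibling replicate 3, 1 proteasome subunit, 4 endothelial genes and 1 cell division gene were higher, and 2 pigment genes were lower. The Vegf receptor gene flt1 had 11.0, 8.91 and 6.38 CPM in mutants, against 7.88, 7.55 and 6.65 CPM in siblings, with overlapping groups (0.25 ± 0.22, adjusted p = 0.670). Among ribosome biogenesis factors 1 of 41 was higher (2.44%), bop1 (0.54 ± 0.12), and 5 without sibling replicate 3 and 0 without any other single library. Of 36 circadian clock genes, 1 was higher (2.78%), bhlhe41 (0.97 ± 0.20), or 2 without sibling replicate 2. Without sibling replicate 3, 4 clock genes were higher and 1 lower. Of 37 epidermal genes 2 were higher (5.41%), krt18a.1 (0.89 ± 0.15) and slc12a10.2 (0.92 ± 0.20). The shares of the biogenesis, clock and epidermal lists were near the 3.96% of all genes. Calls were lost for bhlhe41 without any one of mutant replicates 1, 2 and 3 and sibling replicate 1 (0.0927 to 0.155), krt18a.1 without any one of mutant replicates 1 and 3 and sibling replicate 2 (0.0538 to 0.0598) and slc12a10.2 without any one of mutant replicates 1, 2 and 3 and sibling replicates 1 and 2 (0.0547 to 0.133), and the fit of all 14 libraries did not call slc12a10.2 (0.315). A miss at this number of libraries does not show that these genes were alike in the groups.

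The mutant effect at 48 hpf was then set against that at 24 hpf in a fit of all 14 libraries, which tested the difference between the effects for 24424 genes and scaled CPM over all 14. The effect was higher at 48 hpf for 594 genes (2.43%) and lower for 180 (0.737%), 3.17% in all. The difference rests on the same 48 hpf libraries as the results above. The number of higher differences was 1053 without sibling replicate 3 at 48 hpf, 387 without mutant replicate 3 and 342 without mutant replicate 4 at 24 hpf. The number of lower differences was 375, 109, 89 and 88 without sibling replicates 3 and 2 and mutant replicates 1 and 3 at 48 hpf. Stage equals the batch label here, but mutants and siblings of a stage share it.

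The 6 largest differences each way are described, for genes with a name and an average log2 CPM of at least 1. The gene ctss2.1 measured 16.3, 13.2 and 19.2 CPM in mutants, against 4.21, 4.36 and 2.48 CPM in siblings at 48 hpf, and 17.5, 33.8, 39.9 and 45.7 CPM in mutants, against 299, 333, 256 and 242 CPM in siblings at 24 hpf. Its effect thus had opposite signs, 2.15 ± 0.29 at 48 hpf and -3.04 ± 0.24 at 24 hpf, a difference of 5.20 ± 0.38, adjusted p = 1.98e-06. The glycine carrier gene slc25a38a of the mitochondria measured 11.1, 7.31 and 5.47 CPM in mutants, against 0.793, 0.845 and 0.321 CPM in siblings at 48 hpf, and 1.67, 3.62, 2.02 and 2.81 CPM in mutants, against 6.86, 11.0, 7.76 and 8.64 CPM in siblings at 24 hpf. It too changed sign (difference 5.39 ± 0.50, adjusted p = 1.65e-05). The gene arf4b, already raised at 24 hpf (3.06 ± 0.36), was raised further (8.35 ± 0.49; difference 5.29 ± 0.65, adjusted p = 1.79e-04), which limma-voom did not call (0.106). The genes cd83, slc28a1 and tnip2, an inhibitor of NF-kB signalling, lay within -0.06 ± 0.51, -0.29 ± 0.35 and -0.36 ± 0.49 at 24 hpf and at 4.50 ± 0.56, 4.14 ± 0.44 and 4.08 ± 0.65 at 48 hpf. Of these cd83 was not called for the difference by limma-voom (0.0660).

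Of the 6 largest differences downward, several were of genes raised in mutants at 24 hpf. The calsyntenin gene clstn3, a membrane protein of synapses and fat cells, measured 57.3, 52.5 and 59.09 CPM in mutants, against 73.9, 67.5 and 54.5 CPM in siblings at 48 hpf, with overlapping groups, and 152, 94.0, 119 and 93.1 CPM in mutants, against 8.01, 6.38, 9.84 and 7.42 CPM in siblings at 24 hpf (difference -4.07 ± 0.24, adjusted p = 2.24e-07). The genes FAM135B and tmppe had effects of -0.17 ± 0.26 and 0.07 ± 0.22 at 48 hpf, and 2.78 ± 0.24 and 2.83 ± 0.20 at 24 hpf. The scaffold gene ush1c, of hair cells and gut, was at 1.57 ± 0.38 at 48 hpf and 4.14 ± 0.38 at 24 hpf, and its difference was not called by limma-voom (0.0705). The phosphorylase kinase subunit gene phka1b had effects of opposite sign, -1.03 ± 0.37 at 48 hpf and 1.82 ± 0.37 at 24 hpf. The gene gnb3a, scarcely expressed at 24 hpf, had a difference of -3.78 ± 0.85, adjusted p = 0.0205. That call ended with limma-voom (0.261) and without any one of mutant replicates 2 and 4 at 24 hpf, and sibling replicate 2 and mutant replicates 1 and 3 at 48 hpf.

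**Figure D5:**
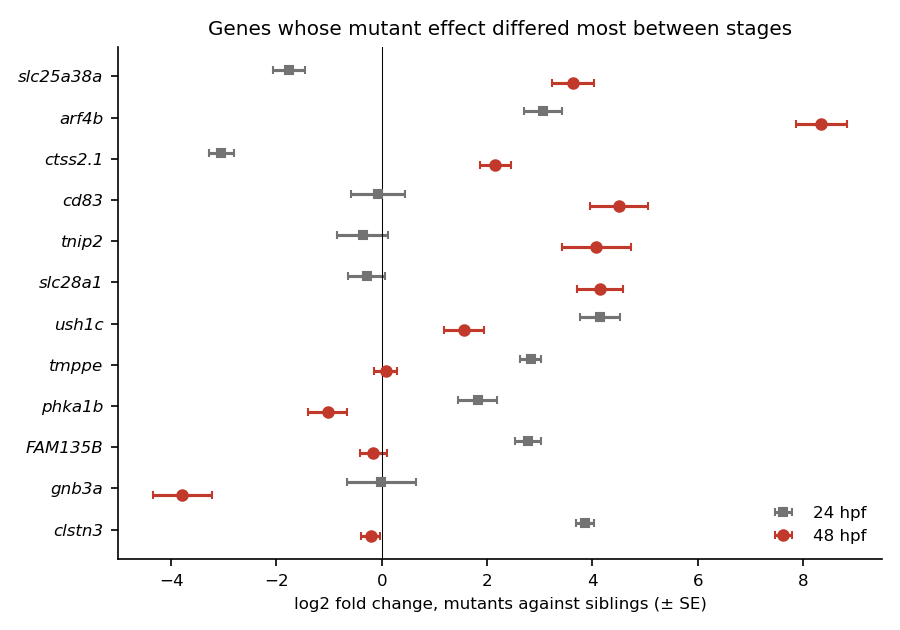
The x axis gives the log2 fold change of mutants over siblings ± SE at 48 hpf (red circles) and at 24 hpf (grey squares) in the fit of all 14 libraries, for the 6 genes with the largest difference each way by the rule given above. For ctss2.1, slc25a38a and phka1b the points of the stages lie on opposite sides of 0, each by more than its SE.

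By gene group, the differences called ran as follows. Over all genes tested for the difference 3.17% were called. Of 30 ER chaperones, 0 differed upward and 6 downward, and of 23 ER-associated degradation genes 0 and 5. Their median effects in this fit were 0.38 and 0.43 at 48 hpf, and 0.52 and 0.21 at 24 hpf. The gene derl3 had a difference of -1.61 ± 0.20, adjusted p = 1.78e-04, and dnajc3a of -1.13 ± 0.17, adjusted p = 0.00127. Of 28 lysosomal genes, 13 differed upward and 0 downward, and their median effect was 0.39 at 48 hpf and -0.31 at 24 hpf. Of 17 aminoacyl-tRNA synthetases, 9 differed upward (median 0.61 at 48 hpf and 0.01 at 24 hpf). Of 36 hepatic secreted protein genes in this fit, 10 differed upward and 2 downward (-0.16 and -0.69). Of 41 ribosome biogenesis factors, 12 differed upward (0.19 and -0.35). Among photoreceptor genes 3 of 34 differed downward, crx by -2.51 ± 0.36, adjusted p = 7.17e-04. Over the libraries left out in turn these counts ranged from 6 to 7 for chaperones, were 5 throughout for degradation genes, and ranged from 10 to 14 for lysosomal genes, from 4 to 12 for synthetases, from 7 to 12 for hepatic genes, from 3 to 23 for ribosome biogenesis factors and from 2 to 5 for photoreceptor genes. The high ends of the lysosomal, synthetase, hepatic, biogenesis and photoreceptor ranges were those without sibling replicate 3 at 48 hpf.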

How the data were processed

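RNA from whole embryos was sequenced in 14 libraries (TRIzol total RNA, 1 ug, a NEBNext Ultra kit that does not mark strand, per the labels' protocols), 6 of them at 48 hpf. The authors deposited raw counts per gene. The submitters' processing notes name the GRCz11 build, featureCounts 2.0.6, STAR 2.7.10b, FastQC 0.12.1 and Trim Galore 0.6.10; the handling of reads shared between genes is not given in the sources used here. Without strand, overlapping genes cannot be told apart.

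Counts were tested with edgeR 4.0.16 (R 4.3.3; quasi-likelihood test, TMM scaling, Benjamini-Hochberg adjustment over all tested genes) on the 6 libraries, without a replicate block, after edgeR's filter at a minimum count of 10. The difference between stages was an interaction in a fit of all 14. The alternatives used DESeq2 1.42.0, limma-voom (limma 3.58.1), other scalings and filters, and left out each library in turn. On simulated counts with 22344 genes at 48 hpf, 5.97%, 41.8% and 81.8% of genes changed 1.5-, 2- and 4-fold were recovered, and 7 of 93 calls were false. The changed genes numbered 67, 67 and 66, all above 1 CPM on average. Recovery at the share of changed genes in the real counts was not tested.

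Genes were named by rule: fixed lipoprotein and stress genes, the 15 largest rises and 15 largest falls among called genes that averaged 1 or more in log2 CPM, had a name that is no clone or locus identifier and had groups that did not overlap, the 6 and 6 largest stage differences without the last condition, and up to 4 called members per list, by p. The lists and members were chosen with earlier results of these data known. Other genes named were chosen after their values were seen (hyou1, sesn2, mthfd1a, cat, elovl4b, elovl5, acsl3b, pnpla2, g0s2, the 5 beta-oxidation genes, apoeb, apoa1a, fga, fgb, fgg, vtna, c9, tap1, dhx58, mxc, b2m, npc2 and si:ch211-270n8.1). The genes first named under the other observations were chosen in that way too. Of 1567 names in the lists, 1474 matched the table directly, 50 by a synonym in RefSeq's gene table (GRCz12tu) and 43 not at all. No sequences were used here.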

Additional observations from a re-analysis of the deposited data

Results flagged for a closer look

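For 83 named genes the mutant effect at 48 hpf differed from that at 24 hpf by the test of the difference itself (edgeR's quasi-likelihood test, adjusted p under 0.05), given here as the log2 fold change of mutants over siblings at 48 hpf minus that at 24 hpf. Among genes of lipoproteins and lipid handling the difference was 1.03 for hnf4b, -1.45 for apobb.2, 1.06 for apoc2, 0.98 for pla2g12b, 1.03 for lpl, 1.26 for lipg, 1.71 for scarb1, 1.85 for apoa4b.2, 1.11 for apoa4a, 0.88 for mylipa, 0.74 for acaca, 1.66 for cideb, 0.94 for srebf1, 1.16 for cyp51, -1.39 for pdk4, 0.81 for pparab and 1.81 for ucp2. Among ER and Atf4 stress genes the difference was 1.52 for ddit3, -1.13 for dnajc3a, -1.61 for derl3, -0.92 for herpud1, 1.22 for creb3l3b, 0.80 for psat1, 1.104 for phgdh, 0.60 for shmt1, 1.45 for slc43a2b, 0.79 for slc1a4, 0.81 for eprs, 0.83 for iars, 0.62 for tars and 0.72 for hars. Among other stress genes and genes of fasting and ribosome biogenesis the difference was 4.03 for si:ch211-199o1.2, 1.71 for hsp90aa1.1, 1.74 for hsp70.3, 1.42 for mdm2, 0.66 for plk3, 2.46 for txn, 1.54 for hmox1a, 0.66 for gclc, 1.89 for pck2, 0.97 for trim63a and 0.82 for bop1. Among secreted and lysosomal proteins the difference was -0.96 for tfa, -0.94 for serpina1l, 1.58 for cfb, 1.28 for cp, 1.28 for ctsz, 2.36 for ctsc, 1.02 for ctslb and 5.20 for ctss2.1. For the carrier genes slc25a38a and slc10a1 it was 5.39 and -1.60, and for the transcription factor genes gata6 and prox1a 0.66 and -1.09. Among immune genes the difference was 3.00 for irf1b, 4.57 for cd83, 0.90 for il6st, 3.06 for cxcl18b, 0.57 for stat3, 2.1999 for socs3a, 0.96 for slc7a7 and 4.44 for tnip2. Among retinal and neuronal genes the difference was -2.51 for crx, -1.79 for otx5, -2.04 for sagb, -3.78 for gnb3a, -1.79 for neurod6b and -0.54 for stmn1b. Among muscle and other tissue genes the difference was 0.79 for desma, 0.97 for unc45b, -1.98 for igfn1.3, -1.76 for sfrp1b, 0.75 for cd63, 0.91 for insm1a, 2.43 for cyp2aa9 and -2.57 for ush1c. Among further genes the difference was 5.29 for arf4b, 4.43 for slc28a1, -4.07 for clstn3, -2.95 for FAM135B, -2.85 for phka1b and -2.76 for tmppe. The fitted difference of tap2a, 10.43, depends on the prior count, since siblings had no count at 48 hpf, and is no bound. Positive values mean only that the signed mutant effect was higher at 48 hpf than at 24 hpf, be it a larger rise or a smaller fall. The genes apoc2 and pla2g12b were among those not called at 48 hpf. Genes named for a large difference between stages were chosen on this measure, so their values are a description.

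In siblings at 24 hpf, gnb3a had 1 library at 0.852 CPM, which stood apart from the other 3 libraries of the group. Chance alone marks about 1 in 20 groups in this way.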

How the results depend on the processing

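Of 164 named genes that were called, 97 were called in every alternative. Over 2519 alternatives of all named genes, called or not, 2270 left the status unchanged. A call was lost in 241 and gained in 8, and 0 reversed. Of 1344 list counts 1042 stayed within 1.5 times and 302 moved. Counts that were 0 in both fits are among the 1042, so lists with calls moved more often than these totals show. At 48 hpf DESeq2 called 1031 genes higher and 595 lower, the fit of all 14 libraries 1040 and 440, and a minimum of 2-fold left 362 and 139. Leaving out 1 library gave 326 to 1173 higher and 77 to 645 lower. The other settings moved these counts by less than 1.5 times. The share of called genes that were higher, 67.7%, ranged from 63.4% to 80.9%, the upper end without mutant replicate 3. The fold change of mttp was -2.09 to -1.55 on the log2 scale with 1 library left out, and -1.73 (0.0530) and -1.62 (0.0599) without mutant replicates 2 and 3. The number of genes whose mutant effect was higher at 48 hpf than at 24 hpf ranged from 342 to 1053 with 1 library left out, and that of genes whose effect was lower from 88 to 375. The count of lower differences was 281 with a CPM of at least 1 in 3 libraries and 504 with DESeq2. Settings with fewer libraries also have fewer degrees of freedom; the cause of the other moves was not tested.

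Replicate numbers are shared between groups. At 48 hpf same-numbered samples deviated together with r = 0.273, 0.193 and 0.0874, and at 24 hpf with 0.306, 0.241, 0.231 and 0.0677. At both stages each sample correlated best with its own number. The labels do not say whether a number marks a shared clutch or day. The main fit treated the samples as unpaired, so its p-values take no account of such a pairing. With a replicate block 715 genes were higher and 315 lower at 48 hpf, mttp was at -1.79 (adjusted p = 0.00650), and for the difference between stages the block gave 873 and 310.

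On these counts 1909 genes were higher and 1692 lower at an unadjusted p under 0.05, with 4 residual degrees of freedom. In the simulated data most changes of 1.5-fold were missed, which does not measure how many were missed here. A search for motifs in promoters was not run, since no sequence was at hand.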

Other observations

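Genes outside the lists, chosen after their values were seen, added detail on the secretory pathway. Among genes of vesicle transport between ER and Golgi, the vesicle fusion gene sec22ba had 91.3, 91.5 and 59.8 CPM in mutants, against 11.0, 12.9 and 9.02 CPM in siblings (2.89 ± 0.20, adjusted p = 1.34e-04), and bet1 of the same machinery changed by 1.54 ± 0.18. The Golgi GTPase gene rab43 changed by 2.93 ± 0.34, and arf4a, a relative of arf4b, by 1.11 ± 0.14. Subunits of the vesicle coats were also higher, copb1 (0.67 ± 0.11), cope (0.76 ± 0.11) and sec31a (0.73 ± 0.11), as were sec61a1l of the ER import channel (1.08 ± 0.13), tram1 beside it (0.94 ± 0.12) and kdelr2b, which returns chaperones to the ER (0.87 ± 0.11). In each of these 10 genes all mutant libraries lay above all sibling libraries, and no alternative ended a call. That is a description, as the genes were chosen with these values known, and secretory genes that were not called were not counted.

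Genes of the NF-kB pathway, also chosen after their values were seen, were called higher too: nfkb2 (1.40 ± 0.15), relb (1.301 ± 0.20) and cd40 (2.75 ± 0.40). The calls of bcl3 (2.30 ± 0.46), traf2b (0.97 ± 0.18) and traf3 (1.03 ± 0.19) ended with some libraries left out, bcl3 without any one of mutant replicates 1, 2 and 3 and sibling replicate 2 (0.0703 to 0.152), traf2b without any one of mutant replicates 1 and 2 and sibling replicate 2 (0.0621 to 0.0837) and traf3 without any one of mutant replicates 1 and 2 and sibling replicate 1 (0.0513 to 0.0896). The methyltransferase gene pmt, chosen in the same way, had 35.8, 62.9 and 46.2 CPM in mutants, against 7.27, 9.27 and 12.7 CPM in siblings (2.30 ± 0.25, adjusted p = 0.00138).

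On the lowered side stood the retinal factor genes six7 (-1.58 ± 0.22), vsx1 (-1.42 ± 0.18) and samd7 (-1.51 ± 0.20, 0.122 in the fit of all 14 libraries). These genes and those named next were chosen after their values were seen, and genes of their kinds that were not called were not counted. The enzymes gamt of creatine synthesis and mthfd1a of folate metabolism changed by -1.08 ± 0.13 and -1.99 ± 0.26.

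Among values from 1 to 10 in the 48 hpf count columns, 72.5% to 77.3% were even numbers. How reads and fragments were counted is not given in the sources used here.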
